A study of Homo sapiens with 3 samples.

Results

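The results below compare human pluripotent stem cells after 3 days of culture with the same line after 1 day, each taken as 1 whole library of single cells. Members are the cell barcodes of the day 1 and day 3 libraries with at least 1000 genes detected and at most 20% of their UMIs (unique molecular identifiers, counts of captured RNA molecules) on mitochondrial MT- genes. This rule kept 3677 barcodes at day 1 and 7261 at day 3, which is 10938 of 23329 barcodes in the whole series. The UMIs of each gene were summed over the kept barcodes of a library and divided by the library's total, which gives a level scaled to 1e+06 UMIs and written CPM. UCLA1, the line in every group, is an established human embryonic stem cell line. All groups were grown in a format that the labels name GiMO. Cells lay below a layer of Geltrex (an extract of basement membrane) and were freed with cold buffer and trypsin. Day 2 of that culture, a further library of 7892 kept barcodes, is given beside the 2 days compared. For days 1, 2 and 3 alike, the labels name no drug, genotype or sorting step that sets the days apart, and do not say when or whether BMP4, which the series title names, was added.

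In the embryo, pluripotent epiblast cells that enter the primitive streak switch on T-box and MESP transcription factors, lose epithelial junctions in an epithelial-to-mesenchymal transition (EMT) and spread as mesoderm. BMP, WNT and NODAL are the secreted signals best known for starting that step, and HOX genes are switched on in the new mesoderm in an order that follows their place in the HOX clusters. Colonies of human pluripotent cells are used as a model of the same step.

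Each day was 1 library, so nothing below could be checked against replicates, and p-values are left out. Day, library and any preparation batch cannot be told apart. A ratio is day 3 over day 1 unless it is called a fold lower, and the numbers in parentheses after a ratio are its 95% interval, which covers counting error only. The kept barcodes held 174216674 UMIs at day 1, 135839495 at day 2 and 153405850 at day 3, with medians of 42295, 16007.5 and 19576 UMIs per cell. The filter removed 24.8%, 25.4% and 7.62% of barcodes at days 1, 2 and 3. Ribosomal protein genes held 23.7% of the kept UMIs at day 1 and 19.5% at day 3; their part in the other ratios was not tested beyond the scalings given below. Days 1 and 3 shared 10 kept barcode sequences, 0.272% and 0.138% of their cells. The labelled cell type was present in its markers: POU5F1 and LIN28A were at 1175 and 300.2 CPM at day 1. Of 12 neural genes 10 did not reach 2 CPM on day 1 or day 3, among them PAX6 (0.161 CPM or less) and SOX1, which had no UMI, while NES, a filament gene that other cells also express, was at 133, 99.3 and 134 CPM. Among fibroblast markers DCN did not pass 0.0587 CPM, and LUM had no UMI at day 1 but was at 2.38 CPM at day 3. COL1A1, another marker of that list, was at 74.8, 36.3 and 18.9 CPM at days 1, 2 and 3, so fibroblast markers were not all low. Of 12 trophoblast genes 9 did not reach 2 CPM on day 1 or day 3, among them CGA and GCM1. SDC1 was at 14.7, 14.6 and 12.9 CPM, KRT7 at 2.83, 1.97 and 1.85, and PGF at 3.12, 4.63 and 24.0.

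Of 14589 genes that reached 2 CPM on day 1 or day 3, 2587 (17.7%) were higher at day 3 and 1452 (9.95%) were lower, where a gene counted once its 2 levels lay 2-fold or more apart and the interval excluded 1. These 2 percentages are the background against which every count below is to be read. The median log2 ratio of all 14589 genes was 0.25. The direction of that balance depended on the scaling. With trimmed-mean (TMM) scaling, which divides every ratio by 1.23 and moves every log2 ratio by -0.29, 1748 genes (12%) were higher and 2248 (15.4%) lower, so that 43.7% of called genes were higher against 64.1% with the library total. Median-of-ratios scaling gave 1812 (12.4%) higher and 2163 (14.8%) lower, 45.6% higher. No gene called with the library total was called in the opposite direction under another setting.

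Large ratios were mostly increases. At 8-fold or more, 581 genes were higher and 111 lower, and at 64-fold or more 143 were higher and 0 lower. The 2587 genes called higher together held 3.65% of all UMIs at day 1, 6.56% at day 2 and 12.2% at day 3, while the 1452 called lower held 9.22%, 6.83% and 3.27%. Genes were also put into classes by the geometric mean of their day 1 and day 3 levels, from 2 CPM up. Genes with a mean under 2 CPM, which reached 2 CPM on only 1 of the days, are in none of these classes. Within the classes, increases were less frequent among abundant genes, and decreases were most frequent in the class of 2 to 10 CPM. Of 4354 genes with a mean of 2 to 10 CPM, 21.04% were higher and 14.2% lower, and of 682 genes with a mean of 200 CPM or more, 3.96% were higher and 6.30% lower.

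**Figure D1:**
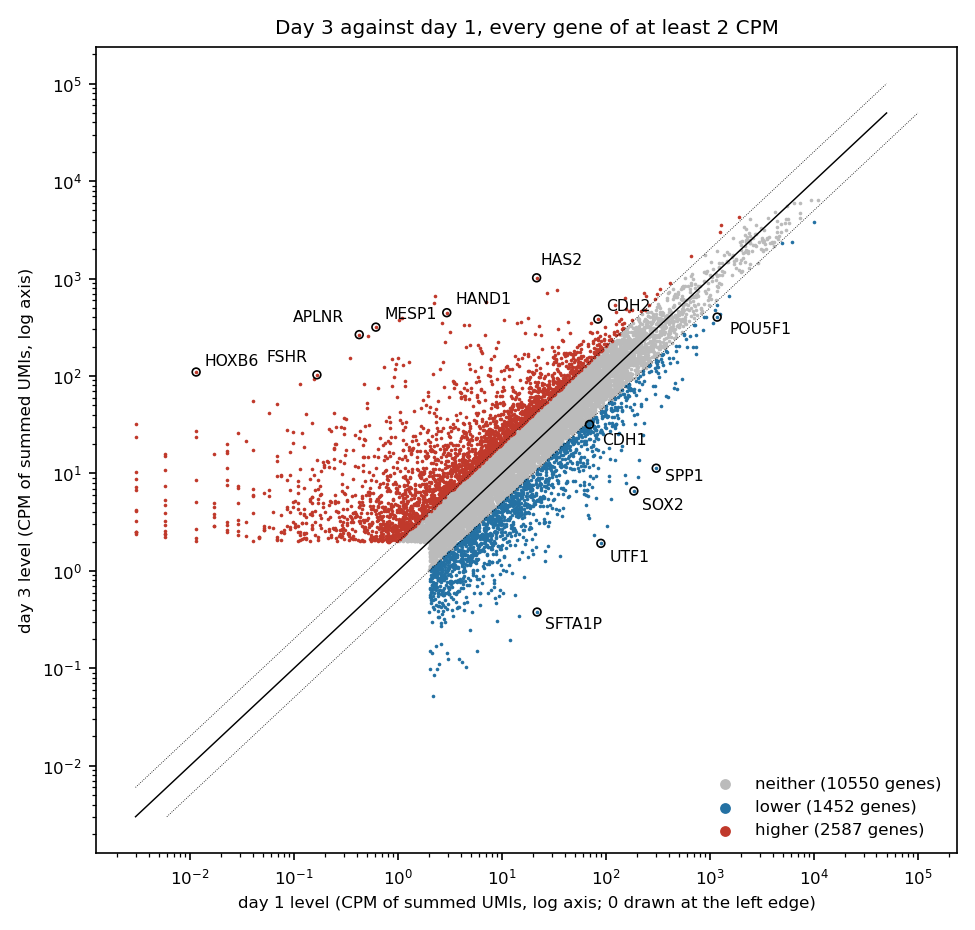
Each point is 1 of the 14589 genes of at least 2 CPM, with its day 1 level on the horizontal and its day 3 level on the vertical axis, both as CPM on log axes; the solid line is equality, the dotted lines are 2-fold, and genes with no UMI at day 1 are drawn at the left edge. The 2587 red genes spread far to the upper left, where HOXB6, MESP1 and APLNR lie, and the 1452 blue genes lie nearer the diagonal, with SOX2 and UTF1 among the farthest.

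The 15 genes farthest above the line, ranked by the bound of the interval nearest 1 among genes of at least 10 CPM, held 6 HOXB genes (HOXB2, HOXB3, HOXB4, HOXB5, HOXB6 and HOXB8), the antisense HOXB-AS3, mesoderm regulators, receptors and secreted factors. MESP1 (chromosome 15, 89749875 to 89751249), a bHLH factor of the earliest mesoderm, was at 0.614 CPM at day 1, 76.1 at day 2 and 317 at day 3, a ratio of 517 (427 to 631). GATA6 (chromosome 18, 22169589 to 22202528), a zinc finger factor of mesoderm and endoderm, was at 0.511, 51.3 and 258 CPM, a ratio of 504 (410 to 628). Its divergent partner GATA6-AS1 went from 0.0287 to 26.2 CPM. Reads of overlapping or antisense partners cannot be told apart here unless the counting used strand, which the sources used here do not give. APLNR (chromosome 11, 57233577 to 57237250), the receptor for apelin and ELABELA, was at 0.425, 16.8 and 266 CPM, a ratio of 625 (498 to 797). RSPO3, a secreted enhancer of WNT signalling, was at 0.155, 18.0 and 92.96 CPM. FSHR, the receptor for follicle-stimulating hormone, was at 0.166, 9.86 and 103 CPM (ratio 618, 430 to 923). RGS13, a regulator of G protein signalling, and HGF, the ligand of the MET receptor, each had 1 UMI at day 1 and reached 15.8 and 14.9 CPM, so their ratios have wide intervals (493 to 108641 and 467 to 102899). The next gene below these 15 was the R-spondin receptor LGR5.

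The 15 genes farthest below the line held pluripotency factors, secreted proteins and long non-coding RNAs. UTF1 (chromosome 10, 133230217 to 133231558), a chromatin protein of pluripotent cells, was at 89.5 CPM at day 1, 17.0 at day 2 and 1.92 at day 3, 46.7-fold lower (41.6 to 52.6). SOX2 (chromosome 3, 181711925 to 181714436), a core pluripotency factor that is also kept in neural cells, was at 186, 79.4 and 6.60 CPM, 28.1-fold lower (26.4 to 30.0). APELA, which encodes ELABELA, one of the ligands of APLNR, was at 68.3, 20.9 and 3.49 CPM, 19.6-fold lower. Receptor and ligand of that pair thus differed in opposite directions, and the other ligand, APLN, did not pass 0.147 CPM on any day. SPP1, which encodes the secreted matrix protein osteopontin, was at 305, 103 and 11.3 CPM. CAV1, the coat protein of caveolae, was at 205, 91.6 and 9.17 CPM. The vasodilator peptide ADM was 35.0-fold lower, the neuropeptide precursor VGF 32.7-fold lower, and TIMP4, an inhibitor of matrix metalloproteinases, was 17.8-fold lower. GNA14 encodes a G protein alpha subunit and was at 111, 46.5 and 5.45 CPM. Among non-coding RNAs, SFTA1P went from 21.8 to 0.378 CPM, LINP1 from 11.9 to 0.196 and LNCPRESS1, a transcript described in pluripotent cells, from 157 to 8.05. LY6K and TRBC2 were 42.6-fold and 25.3-fold lower. All 30 named genes kept their call in each of the 8 other scalings, filters and weightings.

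**Figure D2:**
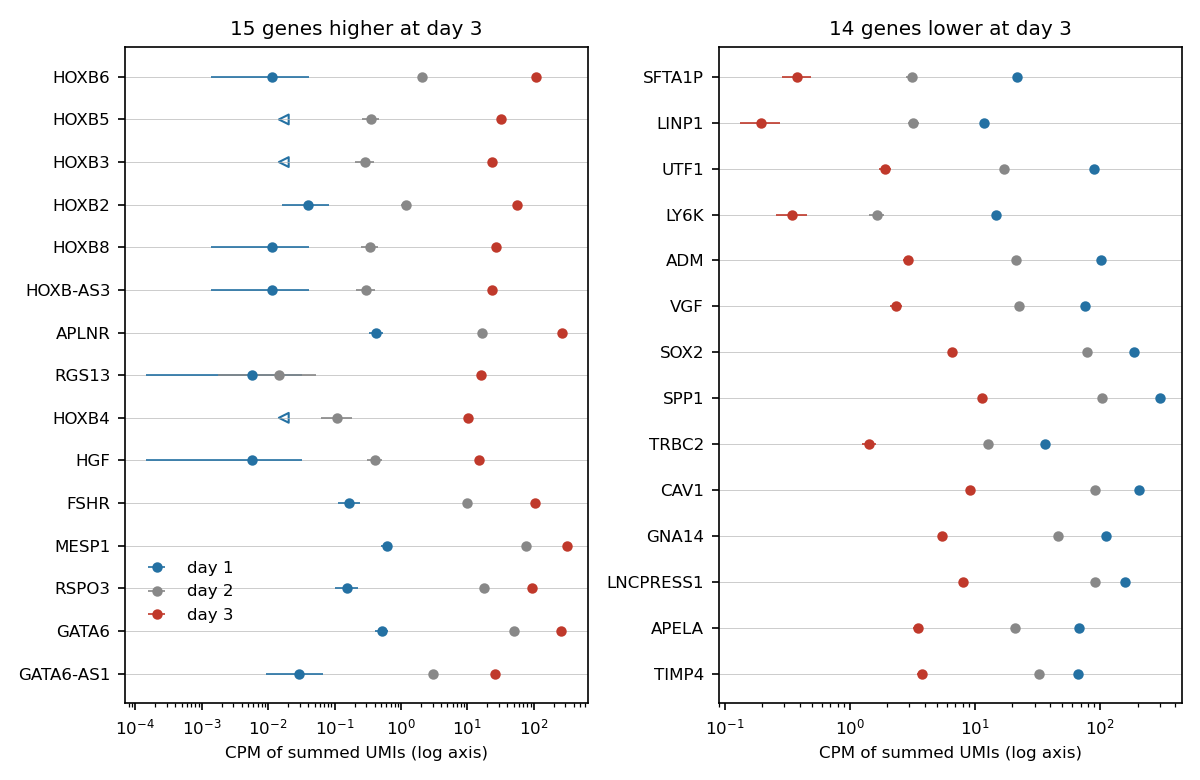
Genes farthest above (left, 15 genes) and farthest below (right, 14 of the 15) equality, with 1 row per gene and the CPM of each day on a log axis; bars are 95% counting intervals and open triangles mark a day with no UMI at the level of 3 counts. At day 2 the grey points lie between those of days 1 and 3 in all 29 rows, and HOXB6 goes from 0.0115 to 109.9 CPM.

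**Figure D3:**
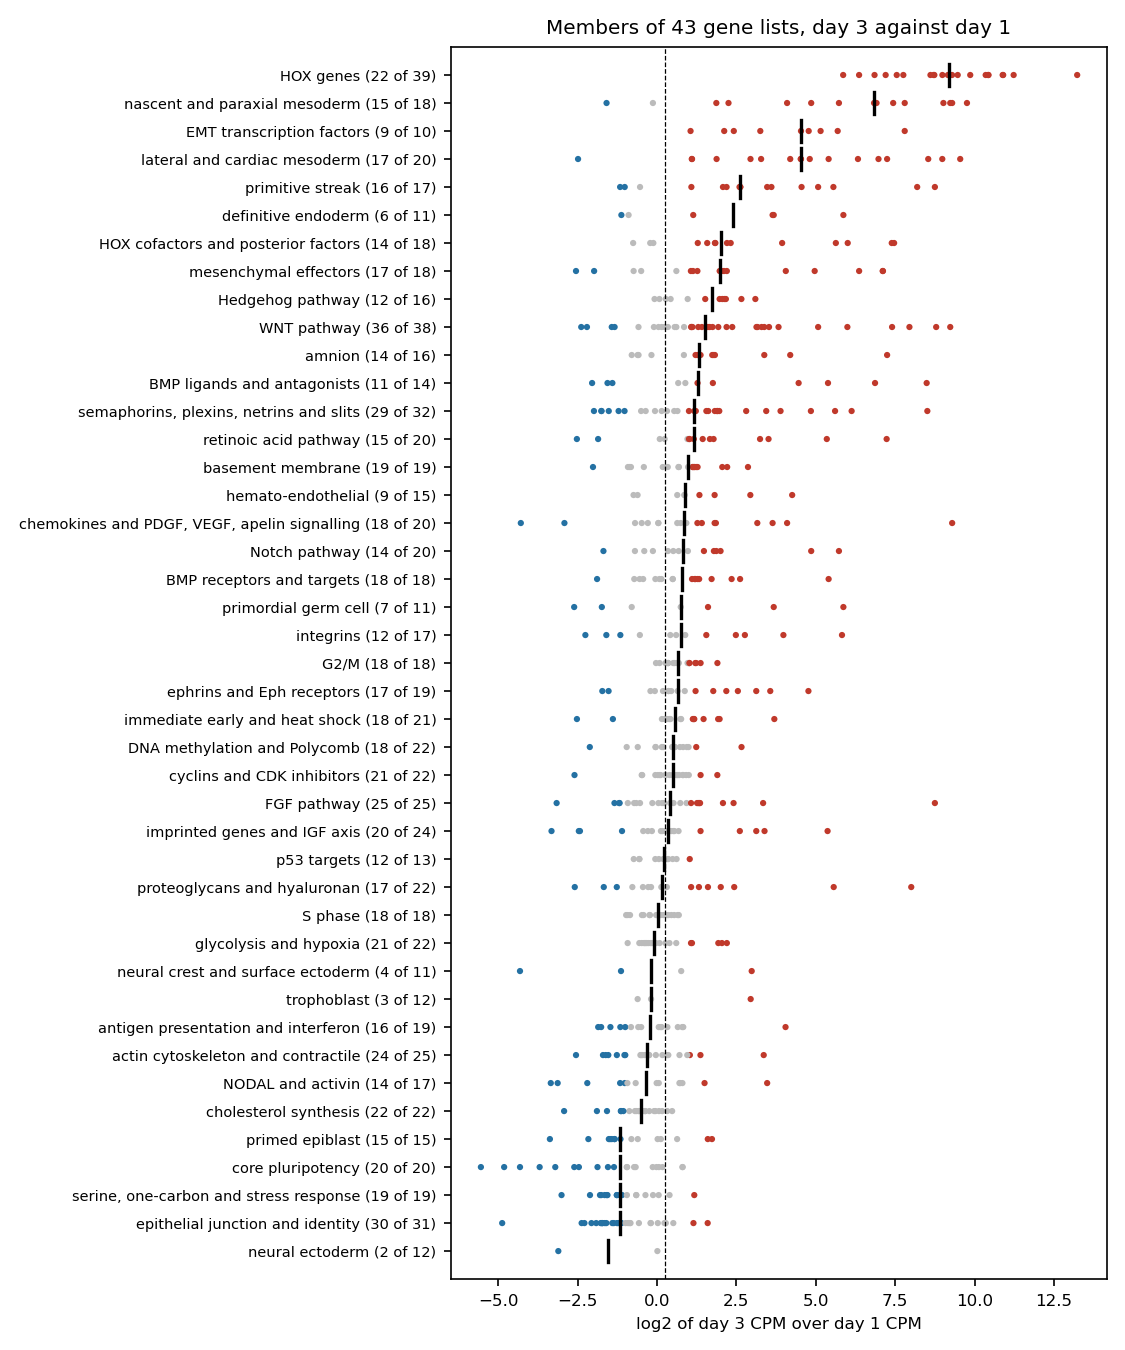
Log2 of day 3 over day 1 for each measured member of 43 gene lists, with the number measured of all members in parentheses; red members are called higher, blue lower and grey neither, black bars are list medians and the dashed line is the median of all genes, 0.25. The medians run from 9.19 for the HOX list to -1.55 for the neural list, of which 2 genes were measured.

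Pluripotency genes separated into a part that was lower at day 3 and a part that was not. Of the 20 genes of the core list, all measured, 10 were lower and 0 higher, and the list's median log2 ratio was -1.16 against 0.25 for all genes (13 lower with TMM). POU5F1, the OCT4 gene, was at 1175, 1036 and 402 CPM, 2.92-fold lower (2.89 to 2.95). Its processed pseudogenes could share some of its reads. NANOG was at 59.6, 56.7 and 10.8 CPM, 5.51-fold lower (5.23 to 5.80). SOX2, by contrast, was already at 79.4 of 186 CPM at day 2. PRDM14, USP44 and FOXD3 were 9.22-fold, 13.0-fold and 19.9-fold lower, and PODXL, the sialomucin that carries surface epitopes of pluripotent cells, was 6.09-fold lower. LIN28A, an RNA-binding protein, was at 300.2, 347 and 338 CPM, and LIN28B, SALL4, ZFP42, DPPA2 and TRIM71 had ratios between 0.909 and 1.75. DNMT3B, DPPA4, L1TD1 and TDGF1 were 1.94-fold, 1.92-fold, 1.65-fold and 1.595-fold lower, short of the 2-fold line.

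The list of primed epiblast genes had 8 of 15 measured members lower and 2 higher (median -1.15). The heparin-binding growth factor gene FGF2, the surface protein gene CD24 and the WNT antagonist SFRP2 were 2.53-fold, 2.79-fold and 2.69-fold lower. PTPRZ1, a receptor phosphatase, was at 145, 155 and 32.3 CPM, and POU3F1 was 10.4-fold lower. Of the higher members, the transcription factor OTX2 was at 7.08, 13.0 and 21.4 CPM. ZIC2 had its highest value at day 2, 91.7 CPM between 42.6 and 46.2.

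Primitive streak genes were mostly higher at day 3, and several of them had their highest value at day 2. Of 16 measured members of 17, 13 were higher and 2 lower, with a median log2 ratio of 2.62. Between days 1 and 2 the list's median was 2.83 and between days 2 and 3 it was -0.02. TBXT, the T-box factor that marks the streak, was at 4.83, 81.0 and 58.5 CPM, a ratio of 12.1 (11.3 to 13.0). MIXL1 was at 15.1, 355 and 354 CPM, and EOMES at 21.5, 98.7 and 129.8 CPM. GSC, a factor of the anterior streak, was at 0.241, 11.6 and 11.3 CPM. LHX1, a LIM homeobox factor, differed from these in its timing: it was at 2.25, 28.1 and 656 CPM, a ratio of 292 (264 to 323). The antagonist CER1 was at 10.4, 48.8 and 115.1 CPM. Of the streak's ligands, FGF17 had 7 UMIs at day 1 and went to 17.2 CPM, WNT8A was 33.6-fold and WNT3 2.11-fold higher, and FGF8 was at 4.05, 14.4 and 2.79 CPM. NODAL and GDF3 were the members that were lower.

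Nascent and paraxial mesoderm genes had a list median of 6.83, with 13 of 15 measured members higher and 1 lower. Of the 15, 10 were under 2 CPM at day 1 and were measured only through day 3, which bears on the count and the median. The same held for 10 of 17 members of the lateral and cardiac list, 5 of 16 streak and 4 of 9 EMT factors. In lists given below it held for 5 of 14 HOX cofactors and posterior factors and 4 of 11 BMP ligands and antagonists. It also held for 4 of 12 Hedgehog, 5 of 15 retinoic acid and 6 of 18 chemokine, PDGF, VEGF and apelin genes. Further such members were 4 of 17 ephrins and Eph receptors, 3 of 17 mesenchymal effectors and 2 of 9 hemato-endothelial genes. So were 3 of 29 in the semaphorin list, 3 of 25 FGF, 3 of 20 imprinted and IGF and 2 of 14 Notch genes. Under 2 CPM at day 3, and measured only through day 1, were 2 BMP, 1 lateral and cardiac, 1 semaphorin list and 1 Notch members. MSGN1, a bHLH factor of presomitic mesoderm, had 4 UMIs at day 1 and was at 15.3 and 19.8 CPM at days 2 and 3. TBX6 was at 0.230, 6.89 and 27.6 CPM, MESP2 at 0.316, 5.43 and 35.9, and FOXC1 at 0.241, 8.08 and 41.6. PDGFRA, a receptor of early mesoderm, was at 4.37, 13.0 and 74.5 CPM, a ratio of 17.1 (15.9 to 18.4). Its ligand PDGFA went the other way, 56.9, 36.3 and 7.54 CPM, 7.55-fold lower. TCF15, an early somite factor that is also known in pluripotent cells, was the member that was lower (12.01, 9.70 and 3.99 CPM), and MEOX1, a later somite gene, did not pass 0.0957 CPM.

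In the lateral and cardiac list 16 of 17 measured members were higher, 1 was lower, and the median was 4.53. HAND1 (chromosome 5, 154474972 to 154478227), a bHLH factor of lateral and extraembryonic mesoderm and of amnion, was at 2.95, 24.5 and 446 CPM, a ratio of 151 (139 to 165). GATA4 was at 0.936, 14.9 and 117 CPM and TBX3 at 4.79, 26.4 and 134. FOXF1, a factor of splanchnic mesoderm, had 4 UMIs at day 1 and reached 17.1 CPM, and HAND2 had the same number and reached 8.52 CPM. ISL1, TBX20 and NKX2-5, which later work in heart progenitors, were at 30.7, 20.2 and 10.7 CPM at day 3, ratios of 18.3, 80.1 and 23.0. Genes of later heart muscle did not share one direction: MYL7 was 7.68-fold higher, TNNT2 5.61-fold lower, and TBX5 and the mesothelial gene WT1 did not reach 2 CPM. Of the hemato-endothelial list 4 of 9 measured members were higher, among them KDR (20.04, 44.8 and 70.3 CPM) and TMEM88 (4.49, 3.84 and 85.6), while TAL1, CDH5 and PECAM1 did not pass 0.224 CPM.

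All 22 HOX genes that reached 2 CPM were higher at day 3, of 39 in the list, and the other 17 did not pass that level on day 1 or day 3. The list's median log2 ratio, 9.19, has genes without a day 1 UMI at their bound of 3 counts. A gene that is nearly silent at day 1 can pass the level only through day 3, so the count itself is no measure of direction. HOX proteins set position along the body axis, and their genes lie in 4 clusters. HOXB6 (chromosome 17, 48595751 to 48604992) had 2 UMIs at day 1 and was at 2.05 CPM at day 2 and 109.9 at day 3, a ratio of 9570 (2649 to 79026). HOXB2 was at 0.0402, 1.19 and 55.0 CPM. HOXB5 had no UMI at day 1, 0.353 CPM at day 2 and 32.4 at day 3, at least 1882-fold higher when day 1 is set to 3 counts. By the same rule HOXB3 was at least 1383-fold and HOXB4 at least 596-fold higher. HOXB8 and HOXB9 were at 27.5 and 26.0 CPM at day 3. Annotated spans overlap in this cluster: HOXB4 and HOXB5 lie inside HOXB3, which HOXB6 and the antisense HOXB-AS3 also overlap, and HOXB8 and HOXB9 lie inside HOXB7, so reads may be shared between these genes.

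Members of the other clusters, and higher-numbered paralogues, were present as well. HOXA10 was at 0.0344, 0.317 and 21.5 CPM, HOXA11 at 0, 0.0736 and 6.71, and HOXA13 at 0.184, 0.346 and 10.7. HOXD11 had 1 UMI at day 1 and was at 0.258 and 10.9 CPM. HOXC6 and HOXC8 had no UMI at day 1 and were at 8.70 and 7.30 CPM at day 3. With day 1 set to 3 counts they were at least 505-fold and 424-fold higher. The 17 genes below 2 CPM had low (HOXA2, HOXB1, HOXD1), middle (HOXA4, HOXA6, HOXC5, HOXD8) and high (HOXC13, HOXD12, HOXD13) paralogue numbers. Of HOX cofactors and posterior factors, 11 of 14 measured members were higher and 0 lower (median 2.02). MEIS1 and MEIS2 were 64.04-fold and 176-fold higher, at 24.6 and 82.9 CPM at day 3, and PBX3 2.43-fold higher. The caudal genes CDX1, CDX2 and CDX4, which act upstream of HOX clusters, were 4.98-fold, 3.53-fold and 3.57-fold higher, and IRX3 went from 0.735 to 123 CPM.

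**Figure D4:**
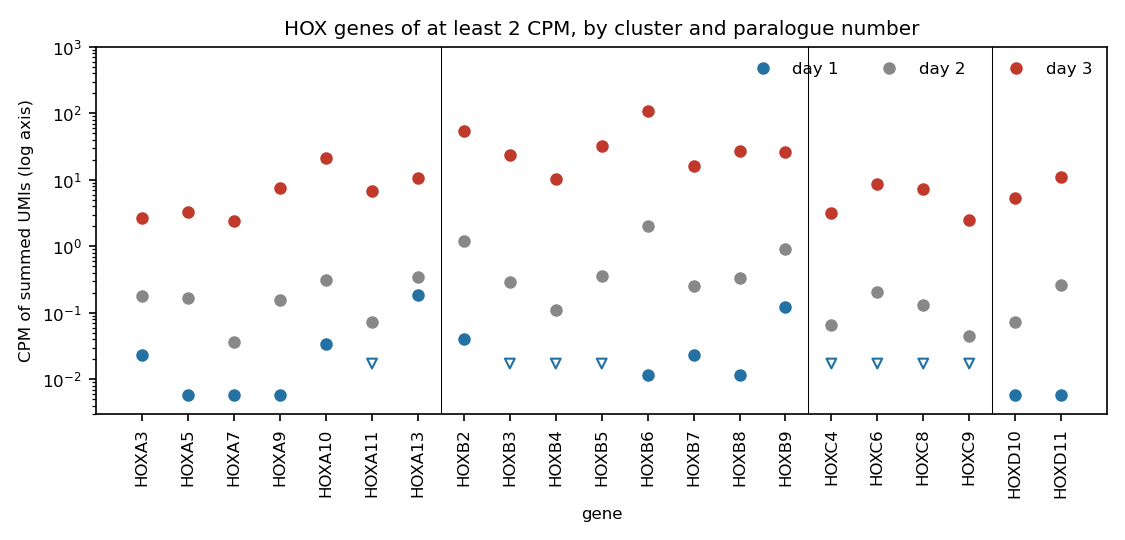
CPM of 21 of the 22 HOX genes of at least 2 CPM on a log axis, ordered by cluster (A, B, C, D, separated by lines) and paralogue number; open triangles mark genes with no UMI at day 1, drawn at 3 counts. All 21 red day 3 points lie above 2 CPM and every grey day 2 point lies below its red point, with HOXB6, at 2.05 CPM, the highest of those drawn at day 2.

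HOX UMIs were spread unevenly over day 3 cells. With every cell cut by random draws to 5000 UMIs (thinned), 0.686% of 3643 day 1 cells (0.445 to 1.01, exact binomial) and 58.0% of 7132 day 3 cells (56.8 to 59.1) had at least 1 UMI of any of the 39 genes. The unthinned shares were 6.01% and 77.8%. If every day 3 cell had carried the mean level, 88.1% would have had one. HOXB6 was found in 31.997% of day 3 cells, against 42.2% for an even level.

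Junction and EMT genes differed by list, with named exceptions. All 9 measured EMT transcription factors of 10 were higher, with a median log2 ratio of 4.53 (8 with TMM). SNAI2 was at 0.149, 2.62 and 33.1 CPM, a ratio of 222 (151 to 340), and SNAI1 at 1.87, 12.1 and 51.0 CPM, a ratio of 27.3. ZEB2 was at 2.73, 9.86 and 140.3 CPM and ZEB1 went from 1.93 at day 1 to 68.6 at day 3. These factors repress epithelial genes. TWIST1 was 9.51-fold and TCF4 4.33-fold higher.

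Of 17 measured mesenchymal effectors 12 were higher and 2 lower (median 1.97). CDH2, the N-cadherin gene, was at 83.7, 164 and 384 CPM, a ratio of 4.58 (4.50 to 4.67). CDH11 was at 7.05, 44.5 and 579 CPM, a ratio of 82.1 (77.6 to 87.0). The fibrillar collagen genes COL5A1 and COL5A2 were 31.1-fold and 16.6-fold higher, and FN1, the fibronectin gene, 3.92-fold. COL1A1 was 3.95-fold lower, at 74.8, 36.3 and 18.9 CPM, and COL1A2 2.09-fold higher. VIM, an intermediate filament gene often used to mark mesenchyme, was at 535, 192 and 815 CPM, a ratio of 1.52. TAGLN, an actin-binding gene of smooth muscle, was at 543, 178 and 92.6 CPM, 5.86-fold lower.

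Of 30 measured epithelial genes of 31, 17 were lower and 2 higher, with a median log2 ratio of -1.17 (21 lower and 1 higher with TMM). The list's median between days 1 and 2 was 0.08 and between days 2 and 3 -1.30. CDH1, which encodes E-cadherin, was at 69.6, 93.8 and 31.8 CPM, 2.18-fold lower (2.11 to 2.26). EPCAM was at 163, 170.5 and 63.5 CPM, 2.57-fold lower. Both had day 2 values at or above their day 1 values. Claudins, which seal tight junctions, were lower in all 5 members of the list: CLDN3 29.4-fold, CLDN10 5.19-fold, CLDN6 3.77-fold, CLDN7 3.42-fold and CLDN4 2.66-fold. The polarity gene CRB3 was at 11.3, 8.54 and 2.31 CPM. ESRP1 and ESRP2, which direct epithelial splicing, were 3.30-fold and 3.36-fold lower, and GRHL2, an activator of epithelial genes, 3.02-fold. Desmosome genes did not follow: DSP was at 41.5, 83.6 and 125 CPM, a ratio of 3.02 (2.94 to 3.10), DSC2 was 2.21-fold higher, and DSG2, PKP2 and JUP had ratios between 1.02 and 1.21. Of the simple keratins, KRT18 was 2.33-fold lower, KRT8 was at 622, 408 and 539 CPM and KRT19 at 212, 182 and 303.

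The E-box CAGGTG is the sequence best known to be bound by SNAI and ZEB proteins, so promoters of 3 epithelial genes are printed here. Each line gives the 250 bases before the annotated start of the canonical transcript (GENCODE release 44, hg38), 5′ to 3′ on the gene's own strand, with CAGGTG or its reverse complement CACCTG in capitals. CLDN7 (chr17:7262479-7262728, minus strand) and CRB3 (chr19:6464021-6464270, plus strand) are shown as the list members with the most matches, and DSP (chr6:7541421-7541670, plus strand) as a member that was higher. They were chosen after their values had been seen.
CLDN7: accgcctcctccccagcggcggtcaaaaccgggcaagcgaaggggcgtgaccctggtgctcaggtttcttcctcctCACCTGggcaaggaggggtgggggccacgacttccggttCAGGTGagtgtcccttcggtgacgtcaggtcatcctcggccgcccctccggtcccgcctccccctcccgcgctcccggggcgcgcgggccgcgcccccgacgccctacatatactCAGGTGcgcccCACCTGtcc
CRB3: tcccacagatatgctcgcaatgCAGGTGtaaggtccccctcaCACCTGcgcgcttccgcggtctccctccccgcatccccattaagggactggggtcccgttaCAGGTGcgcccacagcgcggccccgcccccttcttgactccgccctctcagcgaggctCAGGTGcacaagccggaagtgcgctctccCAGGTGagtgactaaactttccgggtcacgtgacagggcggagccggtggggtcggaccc
DSP: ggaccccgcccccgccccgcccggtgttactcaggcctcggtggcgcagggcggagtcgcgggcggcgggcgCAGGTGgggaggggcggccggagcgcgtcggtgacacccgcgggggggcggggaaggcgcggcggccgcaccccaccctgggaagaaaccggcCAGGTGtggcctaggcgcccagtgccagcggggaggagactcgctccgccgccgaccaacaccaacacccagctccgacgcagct
In the window of 250 bases before and 50 after the start, CLDN7 and CRB3 held 5 matches each and DSP 2. Those of DSP began 178 and 85 bases before the start.

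Among all measured genes the CAGGTG match was more frequent in promoters of genes lower at day 3. It was in 447 of 1449 promoters of lower genes (30.8%), 364 of 2579 of higher genes (14.1%) and 1852 of 10531 of genes called neither (17.6%). Over all 36366 promoters of this length the share was 21.8%. Without the epithelial list the share of lower genes was 30.3%. With calls from TMM scaling the 3 shares were 29.1%, 14.8% and 16.6%. The order of lower above neither held within 3 classes of promoter GC content and 3 classes of expression level, where lower genes had between 26.3% and 33.1%. Within the epithelial list the match did not separate members by call: 13 of 17 lower members held it, 9 of 11 called neither and both higher members. Other E-boxes differed less: CAGCTG was in 18.6% of lower, 18.3% of higher and 15.95% of neither promoters, CACGTG in 8.35%, 7.56% and 10.2%, and CATGTG in 7.45%, 8.96% and 6.47%. TGACTCA, the AP-1 motif, was in 5.04% of lower, 3.10% of higher and 2.25% of neither. All motifs were searched on both strands. A match describes letters, not binding.

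BMP ligands themselves were among the genes that were higher. Of 11 measured ligands and antagonists of 14, 6 were higher and 3 lower (median 1.27). BMP4 was at 17.8, 31.7 and 391 CPM, a ratio of 21.9 (21.2 to 22.8), and BMP2 at 1.12, 25.4 and 130.1 CPM, a ratio of 116 (100.96 to 135). BMPER, a secreted protein that binds BMPs, was at 1.09, 27.9 and 391 CPM, a ratio of 359 (311 to 416). BMP7, BMP6 and the antagonist GREM1 were 2.65-fold, 2.95-fold and 4.13-fold lower. The antagonist NOG was among the higher members, at 0.672, 0.427 and 2.27 CPM. On the receiving side 9 of 18 genes were higher and 1 lower (5 and 2 with TMM, median 0.80). The receptors BMPR2, ACVR1 and ACVR2A were 2.50-fold, 2.29-fold and 3.29-fold higher, and BMPR1A was at 257, 289 and 175 CPM. Direct targets differed among themselves. MSX1 was at 4.96, 28.4 and 209 CPM, and the inhibitory SMAD6 5.08-fold higher, but ID1 was at 739.8, 453 and 199.8 CPM, 3.70-fold lower (3.66 to 3.75), and ID3, ID4 and SMAD7 had ratios of 0.738, 0.963 and 0.608.

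The WNT pathway had 23 of 36 measured members higher and 4 lower (median 1.51) (20 and 4 with TMM). Of the 36, 9 were under 2 CPM at day 1 and were measured only through day 3. Of the ligands, WNT5A, which signals mainly without beta-catenin, was at 0.878, 20.3 and 148 CPM, a ratio of 169 (144 to 199). Its receptor ROR2 was at 22.8, 124 and 323 CPM. LGR5, a receptor for R-spondins such as RSPO3, was at 0.344, 9.78 and 152 CPM, a ratio of 441 (343 to 578). WLS, needed for secretion of WNT proteins, was 8.95-fold higher. Of the nuclear factors, LEF1 was 11.5-fold higher and TCF7L1, which represses WNT targets in pluripotent cells, was at 184, 120.1 and 39.9 CPM, 4.62-fold lower. Of the feedback genes, RNF43 and ZNRF3 had ratios of 1.18 and 1.27 and were not called, AXIN2 and NKD1 had 2.11 and 9.78, and the antagonists DKK1 and DKK4 63.6 and 246.2. AXIN2 and SP5 were higher at day 2 than at day 3. The receptor FZD5 and the antagonists SFRP1 and SFRP2 were the other lower members.

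NODAL signalling genes did not share that direction. Of 14 measured members 2 were higher and 5 lower (median -0.34). NODAL was at 65.1, 168 and 29.1 CPM, with its highest level at day 2. LEFTY1, a NODAL target and antagonist, was at 74.3, 30.6 and 7.30 CPM, 10.2-fold lower, and LEFTY2 at 48.8, 14.5 and 25.5. INHBA and INHBE were 4.58-fold and 8.75-fold lower. CER1 and the receptor ACVR1B were the higher members. In the FGF list 9 of 25 members were higher and 4 lower (median 0.41, 7 and 6 with TMM). The Sprouty feedback genes SPRY1, SPRY2 and SPRY4 had ratios of 2.55, 2.51 and 2.46 and SPRED2 5.31, while ETV4, another target of the pathway, was 2.26-fold lower and DUSP6 had a ratio of 1.66. FLRT3 was 10.1-fold higher, and the receptors FGFR1 and FGFR2 had ratios of 1.17 and 1.12.

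Hedgehog ligands SHH, IHH and DHH did not pass 0.184 CPM on any day, yet 7 of 12 measured genes of that pathway were higher and 0 lower (median 1.74). PTCH1, receptor and target, was at 18.7, 32.8 and 77.6 CPM, the co-receptor BOC 8.54-fold and GLI3 3.92-fold higher, and GLI1, the usual target, was at 5.26, 9.13 and 4.98 CPM. In the Notch list 6 of 14 were higher and 1 lower (median 0.83). DLL3 was at 6.32, 24.3 and 182 CPM and HES7, an oscillating gene of presomitic mesoderm, went from 0.0517 to 2.73 CPM. HEY2 was 4.00-fold higher and the target NRARP 3.22-fold lower. In the retinoic acid list 10 of 15 were higher and 2 lower (median 1.16). CYP26A1, which breaks down retinoic acid, was at 0.838, 26.4 and 34.0 CPM, and the synthesis gene ALDH1A2 at 0.987, 3.22 and 11.2. The binding proteins CRABP2 and CRABP1 went opposite ways, 9.46-fold higher and 3.62-fold lower.

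Receptors for guidance cues held some of the larger ratios. In the list of semaphorins, plexins, netrins and slits 16 of 29 measured members were higher and 6 lower (median 1.17). UNC5C, a netrin receptor, was at 1.02, 24.5 and 372 CPM, a ratio of 364 (314 to 424), and its relative UNC5D was at 326, 274 and 96.8 CPM, 3.37-fold lower. PLXNA2 was at 4.82, 44.4 and 336 CPM and its co-receptor NRP1 at 2.18, 10.2 and 106. The semaphorin ligands also separated: SEMA6D and SEMA5A were 28.7-fold and 14.8-fold higher, SEMA6A was at 476, 635 and 206 CPM, 2.32-fold lower, and SEMA4D, SEMA6B and SEMA4A were 3.96-fold, 3.37-fold and 2.87-fold lower. Among Eph receptors EPHB3, EPHA4, EPHB2 and EPHA2 were 27.2-fold, 11.8-fold, 5.83-fold and 4.53-fold higher, and EPHA1 and EPHB6 2.88-fold and 3.30-fold lower, with 7 of 17 members of that list higher and 2 lower (median 0.65). In the list of chemokine, PDGF, VEGF and apelin genes, which holds APLNR and PDGFRA, 8 of 18 were higher and 2 lower. CXCR4 was at 0.453, 0.353 and 5.64 CPM, with its difference after day 2, and its ligand CXCL12 at 14.9, 18.1 and 10.7.

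Genes of the matrix around the cells differed more in single members than as lists. HAS2, which makes hyaluronan, was at 21.6, 117 and 1018 CPM, a ratio of 47.2 (45.7 to 48.7), and its relative HAS3 was 6.03-fold lower. HAPLN1, which links hyaluronan to proteoglycans, was at 2.20, 37.9 and 565 CPM, a ratio of 256 (232 to 284). The hyaluronan receptor CD44 was 2.41-fold lower and VCAN at 257, 331 and 150.1 CPM. In that proteoglycan list 7 of 17 were higher and 3 lower; its median, 0.16, became -0.14 with TMM. In the basement membrane list 9 of 19 were higher and 1 lower (median 0.98), but 3 and 4 with TMM. LAMB1 and LAMA1 had ratios of 4.62 and 4.15, NID2 7.27, and LAMA4 was 4.05-fold lower. Integrins differed by subunit, with 5 of 12 higher and 3 lower. ITGA5, the fibronectin receptor subunit, was at 7.64, 18.6 and 120.3 CPM, ITGA8 and ITGA9 were 56.5-fold and 6.79-fold higher, and the laminin receptor subunits ITGA6 and ITGA3 were 4.78-fold and 3.03-fold lower.

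Contractile and actin-binding genes were more often lower, 7 of 24 against 3 higher (median -0.32). TPM1 was at 1062, 503 and 347 CPM, S100A10 at 864, 428 and 298, and TAGLN2 and MYL9 were 2.41-fold and 2.04-fold lower. ACTC1, the cardiac actin gene, was at 16.4, 21.8 and 168 CPM, a ratio of 10.2 (9.85 to 10.7). ACTB and ACTG1 had ratios of 1.12 and 1.28.

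Among metabolic lists, decreases were most frequent in that of amino acid and stress genes. In the list of serine synthesis, one-carbon and stress response genes 11 of 19 were lower and 1 higher (median -1.16). SLC3A2, a subunit of amino acid transporters, was at 600, 412 and 200 CPM, PSAT1 and PHGDH of serine synthesis were 2.41-fold and 2.15-fold lower, and the stress targets CHAC1 and DDIT4 8.04-fold and 4.32-fold lower. ATF4, the factor that drives many of them, was at 169, 179 and 175 CPM, an RNA level that gives no measure of its protein or activity. Of 22 cholesterol synthesis genes 6 were lower and 0 higher (median -0.52), led by TM7SF2 (7.60-fold) and MVD (3.72-fold). Glycolysis and hypoxia genes had 5 of 21 higher and 0 lower (median -0.08). EGLN3 and BNIP3, both induced by hypoxia, were 4.12-fold and 3.81-fold higher, and GAPDH was at 4122, 2761 and 2169 CPM, 1.90-fold lower.

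Proliferation genes differed by phase. None of 18 S phase genes was called (median 0.02, -0.28 with TMM, where 3 were lower). Of 18 G2/M genes 6 were higher and 0 lower (2 with TMM, median 0.66), among them CENPE (3.73), CDK1 (2.58) and MKI67 (2.34). CDK6 was 3.72-fold higher and CDKN2A 6.06-fold lower in a list of cyclins and inhibitors where 2 of 21 were higher and 1 lower. Of 12 p53 targets 1 was higher (ZMAT3). The immediate early and heat shock genes, which dissociation with trypsin can induce, had 7 of 18 higher and 2 lower (4 and 2 with TMM). FOS and EGR1 had ratios of 1.19 and 1.11, KLF6 was 3.79-fold higher and FOSL1 5.75-fold lower. Their part in other results was not tested.

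Of the chromatin genes 2 of 18 were higher and 1 lower. JARID2, a partner of Polycomb complex PRC2, was at 736, 478 and 170 CPM, 4.34-fold lower (4.28 to 4.40), while the core subunits EZH2, SUZ12 and EED had ratios of 1.47, 1.44 and 1.99. TET2, an enzyme that removes DNA methylation, was 6.31-fold higher, and TET1 and DNMT1 had ratios of 1.11 and 0.971. In the list of imprinted genes and the IGF axis 5 of 20 were higher and 4 lower. PLAGL1 was at 1.04, 4.14 and 43.1 CPM, and the IGF binding proteins split, with IGFBP4 10.4-fold higher and IGFBP2 and IGFBP6 5.51-fold and 10.0-fold lower. Among antigen presentation and interferon genes 1 of 16 was higher and 5 lower: the DNA sensor IFI16 was 16.5-fold higher, and PSMB8, TAP1 and BST2 were 3.39-fold, 3.61-fold and 2.77-fold lower.

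Markers of other embryonic cell types differed less uniformly. In the amnion list 9 of 14 measured members were higher and 0 lower (7 and 1 with TMM, median 1.32), but HAND1 and ISL1 are shared with lateral mesoderm, and TFAP2A, which the series title names, was at 13.1, 15.5 and 8.74 CPM. GATA3 was 2.32-fold higher, and BAMBI 2.41-fold. In the definitive endoderm list 4 of 6 measured members were higher and 1 lower: SOX17 went from 0.241 to 14.05 CPM, and FOXA2 did not pass 1.39 CPM. All 4 higher members were under 2 CPM at day 1 and were measured only through day 3, so their count is no measure of direction. In the germ cell list 3 of 7 were higher and 2 lower, PRDM1 at 14.8 and NANOS3 at 3.82 CPM on day 3. Of these 7, 4 were under 2 CPM at day 1 and 1 was under it at day 3. In the amnion list these numbers were 4 and 1 of 14. Of 12 trophoblast genes 3 reached 2 CPM and 1, PGF, was higher. Of 12 neural genes 2 did, and SOX3 was 8.63-fold lower. In a sum over cells, more cells of a type and more RNA per cell cannot be told apart.

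Genes higher at day 3 and genes lower at day 3 differed in how much of the difference was present at day 2. For the 1543 higher genes of at least 10 CPM (15.3% of 10114) the median gene had 49.7% of its log2 difference at day 2. For the 774 lower genes (7.65%) it had 23.8%, and 165 of them were above their day 1 value at day 2. This order rests on the scaling: with TMM the medians were 35.2% and 42.2%. APLNR and MESP1 were each past the middle of their log2 difference at day 2, and CXCR4 was below its day 1 level.

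Shares of cells were compared after thinning every cell to 5000 UMIs, which left out 34 cells at day 1 and 129 at day 3. HAND1 had a UMI in 1.15% of day 1 and 71.1% of day 3 cells (70.02 to 72.1, unthinned 8.16% and 86.3%). MESP1 went from 0.302% to 63.5% (unthinned 2.50% and 82.8%) and HAS2 from 10.2% to 86.4% (42.3% and 94.8%). SOX2 went from 54.2% to 1.98% (92.0% and 5.56%), NANOG from 26.2% to 3.87% (84.4% and 11.004%) and POU5F1 from 98.2% to 74.9% (99.2% and 94.5%). Classes were set on the unthinned counts of the same day 3 cells: 109 had a SOX2 UMI and none of HAND1 and MESP1 (1.53%, median 19572 UMIs), and 5981 had HAND1 and no SOX2 (83.9%, median 19933 UMIs). Choosing cells without 2 abundant mesoderm transcripts also favours cells with little free RNA of that kind, so the shares below are a description and no measure of free RNA. APLNR was in 11.9% of the former and 68.7% of the latter, BMP4 in 13.8% and 77.4%, CDH11 in 19.3% and 82.7%, and HOXB6 in 0 and 36.5%. EPCAM was in 53.2% and 14.7%, and POU5F1 in 98.2% and 71.7%.

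Some genes were held by fewer day 3 cells than their level would fill. If a gene's level were the same in every cell, the share of cells with a UMI would follow from its mean. The median of the 1543 higher genes was at 95.01% of that share, and 139 genes were under 80% of it, a count that was 256 with cells thinned to 10000 UMIs. Among the 566 of at least 50 CPM, ACTC1 stood lowest, in 19.5% of day 3 cells against 58.6% for an even level. DMD, the dystrophin gene, was in 20.3% against 55.2%, and PMP22, a myelin and junction protein gene, in 20.3% against 49.8%. CER1 was in 20.3% against 43.2%. Unthinned, ACTC1, PMP22 and CER1 were in 39.5%, 36.8% and 33.1% of day 3 cells. LHX1 was in 65.1% against 96.3%. In day 1 cells the 774 lower genes had a median of 97.1% of the even share and 5 were under 80%. LEFTY1 stood lowest there among genes of at least 50 CPM, in 23.0% of cells against 30.3%. At day 1 SPP1 was in 63.3% against 78.2%.

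**Figure D5:**
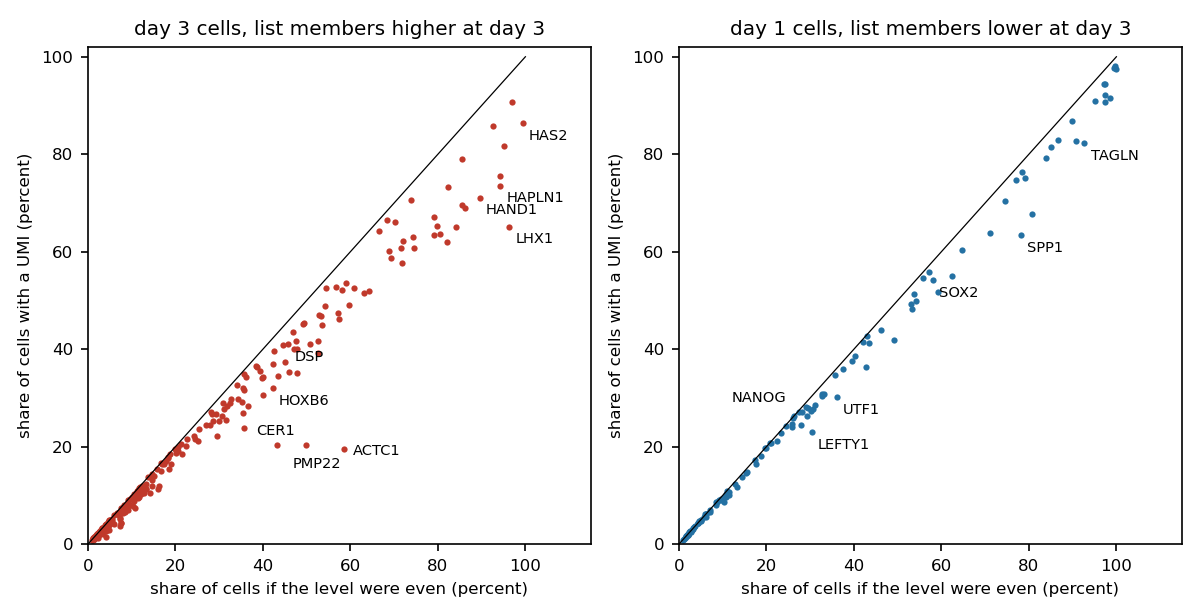
Share of cells with a UMI after thinning to 5000 UMIs (vertical) against the share that an even level would give (horizontal), both in percent, for list members higher at day 3 in day 3 cells (left) and lower at day 3 in day 1 cells (right); the line is equality. ACTC1, PMP22 and CER1 lie far below the line at left, at 19.5% to 20.3% of cells, and no point at right lies as far below it.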

How the data were processed

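Single-cell RNA of UCLA1 cells was measured on the 10x platform at days 1, 2 and 3, with 1 library per day. The authors deposited raw UMI counts per gene and barcode; Cell Ranger 5.0.1 and hg38 are named per the submitters' processing notes. Of 36601 genes, those with at least 2 CPM in the higher of the day 1 and day 3 libraries were compared. UMIs were summed over kept barcodes and divided by the library total. Ratios carry exact conditional binomial 95% intervals and shares of cells exact binomial ones. A gene was called at a ratio of at least 2 with an interval excluding 1. No residual variation between samples exists, so no model was fitted. The named genes are the 15 per direction, at 10 CPM or more, with the interval bound farthest from 1, leaving out clone-named and MT- genes. The members and lists were chosen with earlier results of these data known. No doublet caller was run and doublets were kept; an alternative left out the barcodes with the most UMIs. Promoters were read from hg38 with GENCODE release 44. The ratio script was tested on simulated data. Python 3.11.15, numpy 2.4.6, scipy 1.17.1 and pandas 2.3.3 were used. Some single genes and sequences are not reported here.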

Additional observations from a re-analysis of the deposited data

How the results depend on the processing

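Beside the library total, 2 other scalings, a total without ribosomal protein and MT- genes, other barcode filters, a depth window, equal cell weights and other minimums were tried. TMM scaling gave 2248 lower genes against 1452. The median log2 ratio of all genes was 0.25, and became -0.062 with TMM, -0.032 with median-of-ratios scaling and 0.15 without ribosomal protein and MT- genes. A minimum of 10 CPM gave 1543 higher and 774 lower genes, a ratio of 1.5 gave 4691 and 2578, and a ratio of 4 gave 993 and 401. The share of the log2 difference present at day 2 went from 49.7% to 35.2% for higher and from 23.8% to 42.2% for lower genes with TMM. These shifts follow from the scale factor, which moves every ratio alike, or from the thresholds. The median of the neural list went from -1.55 to 0.0097 at 10 CPM, where fewer of its genes were tested. Of 387 list medians over all settings, 379 stayed within 0.5 of the main value on the log2 scale, a tolerance chosen for this purpose. Within or beyond it, 12 medians in 6 lists changed sign: S phase, trophoblast, proteoglycans, p53 targets, neural, and crest and surface ectoderm. The HOX median was 6.09 in cells of 15000 to 30000 UMIs and 9.94 at 10 CPM. That depth window kept 718 of the 3677 day 1 cells. The count bound for HOX genes without a day 1 UMI was thus a higher CPM there, which lowers their ratios. The value of 6.09 is therefore no measure of a smaller HOX difference at matched depth, and the part of the bound in it was not tested. No paired analysis was possible because each day was 1 library. For the same reason no replicate could be left out.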

Other observations

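Some genes had day 2 levels outside the range of the other days. By a rule of at least 10 CPM at day 2 and a day 2 level 2-fold or more above both other days, 61 genes were highest at day 2, and 52 of these were called neither higher nor lower between days 1 and 3. C4orf51 was at 5.93, 23.2 and 5.57 CPM at days 1, 2 and 3. GABRB2, a GABA receptor subunit, was at 4.25, 55.8 and 15.9 CPM. FGF8 and FGF4, ligands of the streak, were at 14.4 and 17.8 CPM at day 2. At 10 CPM or more on days 1 and 3 and 2-fold or more below both at day 2 were 4 genes: VIM, the filamin gene FLNC (48.2, 16.7 and 46.2 CPM), the cadherin gene CDH13 (41.4, 17.8 and 39.7 CPM) and DGKB (12.3, 5.35 and 42.7 CPM).

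Long non-coding RNAs were called more often than protein-coding genes. Of 1797 measured, 29.9% were higher and 14.1% lower at day 3, against 16.01% and 9.36% of 12745 protein-coding genes. The 2 kinds of gene were not matched by level. Calls of either direction were more frequent at a mean of 2 to 10 CPM than at 50 to 200 CPM. The part of level in this contrast was not tested. Among protein-coding genes, those higher at day 3 had a median annotated span of 63.8 kb, those lower 28.2 kb and those called neither 35.3 kb.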
